A study of Homo sapiens with 6 samples.

Results

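The genes described here are 38 hypoxia response and glycolysis genes, chosen by symbol from a list of the oxygen-sensing pathway, its best known targets and the enzymes and transporters of glycolysis. They are 38 of the 20061 rows of the deposited expression table. The authors tested 36 of them, and 33 of those had a mean level of at least 1 FPKM, a unit that divides sequenced fragments by transcript length and by depth. EGLN3 and CA9 are marked there as not tested. GAPDH, another core enzyme of glycolysis, is left out because the authors' table marks it as having too much data.

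The RNA came from HEYA8, a human cell line of ovarian cancer, which the labels call low grade serous carcinoma. All cells had been transduced with a lentivirus for stable expression of a short hairpin RNA (shRNA) and were kept in 10% serum and 5 microgram/ml puromycin with no further treatment. In the control group the hairpin was directed at luciferase, which human cells do not encode (shLuciferase, 3 samples). In the other group it was directed at the transcription factor ETS1 (shETS1, 3 samples). Not given in the sources used here are the number of hairpin sequences per target, whether the cells were clonal, whether the samples were separate cultures and the oxygen tension of the cultures. The table holds 1 FPKM per gene and group, so every level below is the authors' group value, the spread between samples cannot be shown, and the p-values may reflect technical spread only.

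Cells sense oxygen through the EGLN prolyl hydroxylases, which mark the HIF alpha subunits HIF1A and EPAS1 for destruction through the VHL ubiquitin ligase while oxygen is present. When oxygen is scarce the alpha subunits persist, pair with ARNT and bind short DNA elements with the core ACGTG or GCGTG. Their targets include most glycolytic enzymes, the glucose and lactate transporters, mitophagy receptors and collagen-modifying enzymes. Much of this control acts on the stability of the HIF proteins, which transcript levels do not show. Many cancer cells also keep glycolysis high in the presence of oxygen.

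Sequence before the gene start is shown for 5 of these genes, because they cover the range of what was measured: CA9, listed close to 0; DDIT4 and PFKFB3, on opposite sides at an unadjusted p under 0.05; BNIP3, the close relative of BNIP3L; and PGK1, an abundant enzyme with nearly equal values. Each line gives the 250 bases before a RefSeq gene start on GRCh38.p14, written 5′ to 3′ along the gene, with every ACGTG on either strand in capitals (CACGT is ACGTG read on the other strand).
CA9 (chr9:35673678-35673927, plus strand): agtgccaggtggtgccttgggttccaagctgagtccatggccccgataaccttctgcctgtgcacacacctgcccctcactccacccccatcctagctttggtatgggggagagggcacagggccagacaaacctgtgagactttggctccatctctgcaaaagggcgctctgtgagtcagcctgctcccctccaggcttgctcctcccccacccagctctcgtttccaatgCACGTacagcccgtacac
DDIT4 (chr10:72273674-72273923, plus strand): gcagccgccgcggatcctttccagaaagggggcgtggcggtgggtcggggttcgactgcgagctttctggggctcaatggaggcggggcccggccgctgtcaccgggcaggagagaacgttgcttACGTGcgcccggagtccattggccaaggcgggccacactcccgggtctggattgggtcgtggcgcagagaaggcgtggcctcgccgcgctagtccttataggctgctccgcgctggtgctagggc
PFKFB3 (chr10:6202682-6202931, plus strand): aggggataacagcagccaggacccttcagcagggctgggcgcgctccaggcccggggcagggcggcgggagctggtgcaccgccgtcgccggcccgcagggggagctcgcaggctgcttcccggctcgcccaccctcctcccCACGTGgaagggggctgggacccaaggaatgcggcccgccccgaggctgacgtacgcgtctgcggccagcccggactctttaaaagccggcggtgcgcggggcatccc
BNIP3 (chr10:131981924-131982173, minus strand): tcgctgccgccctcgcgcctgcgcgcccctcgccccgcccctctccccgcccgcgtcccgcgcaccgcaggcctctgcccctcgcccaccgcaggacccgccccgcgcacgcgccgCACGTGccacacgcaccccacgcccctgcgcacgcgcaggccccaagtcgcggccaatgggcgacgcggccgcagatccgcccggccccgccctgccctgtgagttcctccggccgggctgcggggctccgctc
PGK1 (chrX:78103998-78104247, plus strand): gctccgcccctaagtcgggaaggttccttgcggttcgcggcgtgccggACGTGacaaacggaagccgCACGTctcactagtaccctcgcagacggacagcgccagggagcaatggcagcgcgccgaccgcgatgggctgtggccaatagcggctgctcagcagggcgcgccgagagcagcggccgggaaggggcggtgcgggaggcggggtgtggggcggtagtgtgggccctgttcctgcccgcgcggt
All 5 stretches hold the core, but these genes were picked by hand, so nothing about the other genes follows from that. Of the 35 genes with a RefSeq window, 20 had the core, as given below. The line for PFKFB3 shows 1 of its 2 listed starts, the one with the core. In PFKFB3 and in BNIP3 the capitals form CACGTG, which reads as the core on both strands, and in PGK1 there are 2 separate cores.

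RefSeq windows of 300 bases (250 before to 50 after the start) were found for 35 of the 38 genes, the exceptions being BNIP3L, NDRG1 and SLC2A3. ACGTG on either strand was present in 24 of their 63 windows (38.1%), against 21.4% of all 35116 windows. Counted by gene, 20 of 35 (57.1%) had it in at least 1 window, against 33.5% of the 7807 expressed genes with an entry. For GCGTG the shares were 62.9% of the 35 genes and 59.9% of expressed genes. A core of the ETS motif, CCGGAA on either strand, was present in 14 of the 63 windows (22.2%) against 17.2% of all windows. By gene it was present in 9 of the 35 (25.7%), against 36.4% of expressed genes and 20.1% of all genes, and in none of the 5 stretches printed above. These matches describe letters in a window and not bound sites, and a gene with more listed starts has more windows in which to match.

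The targeted gene, ETS1, fell from 41.4 to 17.9 FPKM, a level 56.9% lower (q = 0.00964, the authors' deposited table). The labelled cell type was compared with markers: 8 of 9 ovarian carcinoma markers reached 1 FPKM, among them PAX8 at 79.7 and 76.8 FPKM, while MUC16 was near 0. These markers summed to 5248 FPKM in control cells and 3807 FPKM after knockdown, mostly from the keratins KRT8 (1913 and 1288 FPKM), KRT18 (2044 and 1498 FPKM) and KRT7 (1187 and 910 FPKM), none of them called. MSLN was at 17.9 and 26.5 FPKM and SOX17 at 1.15 and 2.38 FPKM, not called either. The part that the lower keratin levels have in the small differences of the enzymes was not tested. The leukocyte markers PTPRC, TYROBP and CD3E and the fibroblast markers COL3A1 and DCN were listed at 0 in both groups. The fibroblast marker COL1A1 rose from 1.29 to 3.75 FPKM (q = 0.00964, the authors' deposited table), and the leukocyte marker LAPTM5 was at 2.82 and 1.36 FPKM (q = 0.0827, the authors' deposited table). The summed levels of the leukocyte, fibroblast, adipocyte and erythroid markers were at most 3.88 FPKM in either group. Of 4 endothelial markers with a row, only CDH5 reached 1 FPKM. It fell from 17.6 to 5.00 FPKM (q = 0.00964, the authors' deposited table). In bulk RNA, fewer cells of a type and less RNA per cell cannot be told apart.

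No hypoxia or glycolysis gene was called changed when ETS1 was lowered. The authors' deposited table puts 0 of the 36 at a q-value of at most 0.05, where 0.812% of all 11952 tested rows are. At a looser q-value of 0.1 the count was 1, BNIP3L, against 1.26% of all tested rows. At an unadjusted p under 0.05 there were 3 of 36 (8.33%), near the 6.94% of all tested rows. BNIP3L and DDIT4 were the 2 higher in shETS1, where 3.9% of all tested rows were, and PFKFB3 the 1 lower, where 3.04% were. Of the 36, 35 differed by less than 1.5-fold (97.2%), as did 92.6% of all tested rows. The exception was BNIP3L. The 33 genes with at least 1 FPKM had a median log2 ratio of shETS1 over shLuciferase of -0.09, against 0.02 over the 10676 tested rows at that level. That median was -0.01 over all 36 tested genes and 0.058 without the glycolytic enzymes.

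**Figure D1:**
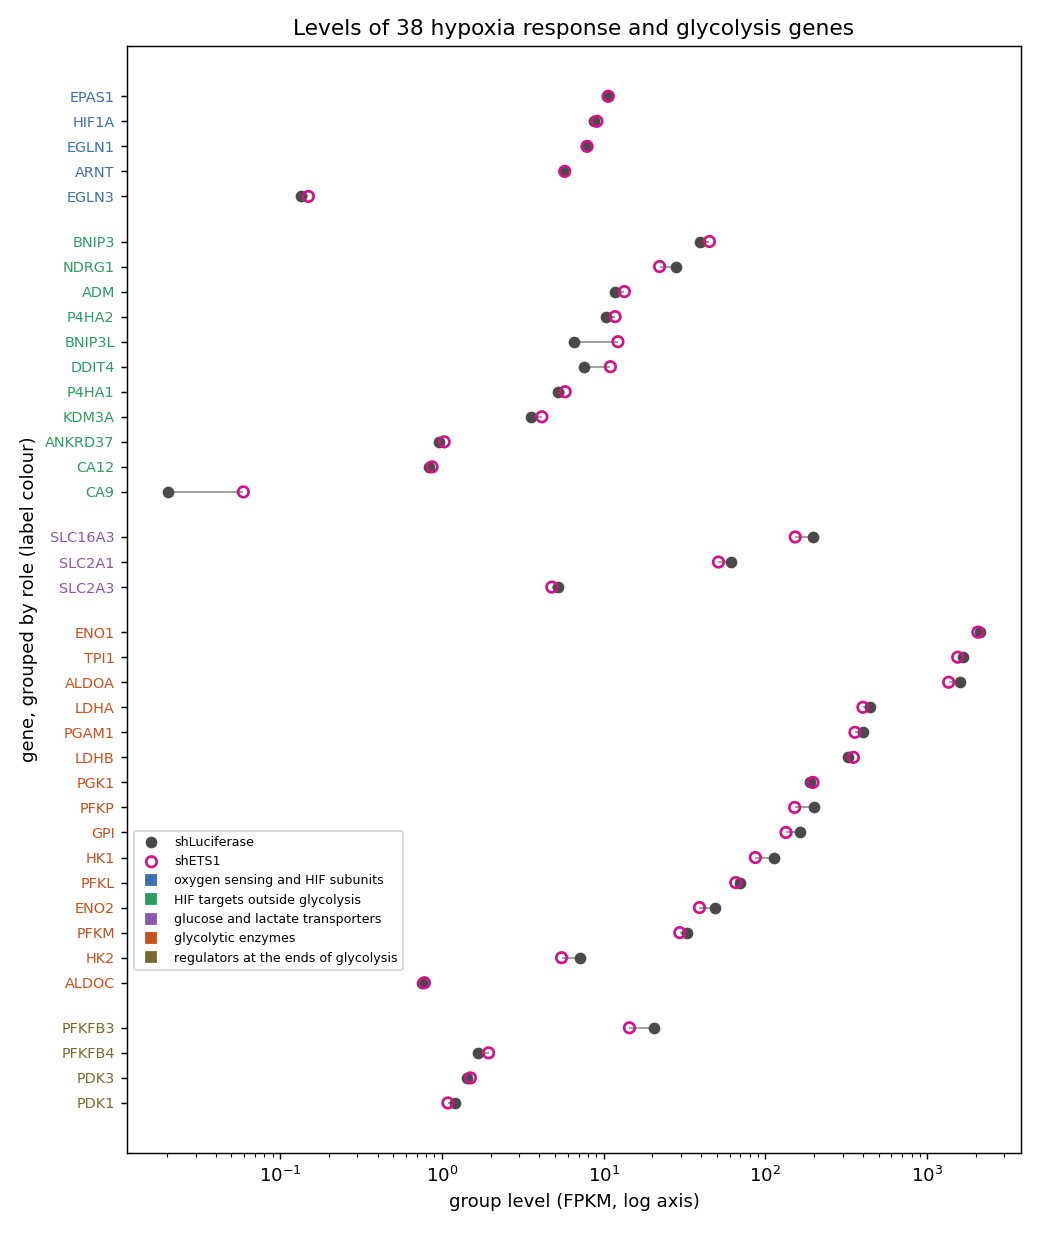
Group level of each of the 38 genes (horizontal log axis, FPKM) in shLuciferase (filled grey) and shETS1 (open magenta), grouped by role through the colour of the gene name. The pairs of points nearly coincide for the HIF subunits, BNIP3L shows the widest gap among tested genes (6.58 and 12.3 FPKM), and the untested CA9 lies near 0 in both groups.

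The oxygen sensors and HIF subunits had almost the same levels in both groups. HIF1A, the alpha subunit found in most cells, was at 8.72 FPKM in control cells and 9.08 FPKM in shETS1. EPAS1, which encodes HIF-2 alpha, was at 10.4 and 10.7 FPKM, so the alpha subunits were transcribed at similar levels per length, with HIF1A at 45.6% of their sum in the control and 45.9% after knockdown. ARNT, their shared partner, was at 5.69 and 5.75 FPKM. The log2 ratios of these genes and of EGLN1 lay between 0.01 and 0.06, with q = 1.00 for each in the authors' deposited table.

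Of the hydroxylases that mark HIF for destruction, EGLN1 was moderate and EGLN3 scarce, while EGLN2, which is not one of the 38, was at 91.2 and 77.9 FPKM. EGLN1 was at 7.79 FPKM in control cells and 7.89 FPKM in shETS1. EGLN3, which hypoxia strongly induces in many cells, was at 0.135 and 0.150 FPKM and was not tested. Of the summed level of EGLN1 and EGLN3 alone, EGLN1 held 98.3% in the control and 98.1% after knockdown.

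The rest of the HIF machinery was read from a list of 12 other genes, 11 of them tested. Of these 0 were called, where 0.812% of all tested rows were. VHL, the substrate receptor of the ubiquitin ligase that degrades HIF alpha, was at 12.2 and 19.5 FPKM (p = 0.00405 and q = 0.195, the authors' deposited table). TCEB1, which encodes elongin C of the same ligase, was at 63.5 and 88.0 FPKM (p = 0.0460 and q = 0.692, also from the authors' deposited table). TCEB2, the elongin B partner, was at 449 and 443 FPKM, and RBX1, the RING subunit, at 90.3 and 102 FPKM. VHL and TCEB1 were thus the members of this list at an unadjusted p under 0.05, 18.2% of its 11 tested genes. Of all tested rows 6.94% were at such a p. Both genes were higher in shETS1, where 3.9% of all tested rows were. The list's median log2 ratio was 0.00.

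Among the HIF targets outside glycolysis, 7 of the 8 genes with at least 1 FPKM had a higher value in shETS1 and 1 a lower value, with none of the 10 tested called. Their median log2 ratio was 0.20. Over all tested rows at that level, 47.4% had a lower value in shETS1. The mitophagy receptors BNIP3 and BNIP3L, which tether mitochondria to autophagosomes, are the natural pair to compare. BNIP3L (chromosome 8, 26240523 to 26270644, hg19) was at 6.58 FPKM in control cells and 12.3 FPKM in shETS1, 1.86-fold higher. The authors' deposited table gives BNIP3L p = 0.0006 and q = 0.0670, and 104 of the tested rows had a smaller p. BNIP3 was at 39.4 and 45.0 FPKM, a log2 ratio of 0.19 (q = 1.00, the authors' deposited table). BNIP3L accounted for 14.3% of the summed level of the pair in the control and for 21.4% in shETS1. BNIP3L missed the threshold at a fold close to the smallest that was called: among the 3621 tested rows within 2-fold of its mean level, 26 were called, the smallest change among them being 1.85-fold.

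DDIT4, an inhibitor of the growth kinase complex mTORC1 that hypoxia and other stresses induce, had the next highest ratio. DDIT4 (chromosome 10, 74033677 to 74035797, hg19) was at 7.61 FPKM in control cells and 11.0 FPKM in shETS1, 1.45-fold higher. In the authors' deposited table, DDIT4 has p = 0.0423 and q = 0.678. Of 13 listed genes of the TSC and mTORC1 pathway, 12 were tested and 0 called, where 0.812% of all tested rows were. Of the 12, 2 (16.7%) had an unadjusted p under 0.05, where 6.94% of all tested rows did. DDIT4L, a relative of DDIT4, was at 3.64 and 5.76 FPKM (p = 0.0117 and q = 0.368, the authors' deposited table). SESN2, another stress-induced inhibitor of mTORC1, was at 20.8 and 14.4 FPKM (p = 0.0282 and q = 0.576, also from the authors' deposited table). These inhibitors of the same complex therefore had ratios of opposite sign, none of them called. The mTORC1 substrate EIF4EBP1 was at 469 and 431 FPKM, and AKT1S1, a subunit that restrains the complex, at 105 and 91.1 FPKM.

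The remaining targets of this group differed little. ADM, a vasodilator peptide, was at 11.7 and 13.4 FPKM. KDM3A, a histone demethylase that needs oxygen, was at 3.53 and 4.15 FPKM. The alpha subunits of collagen prolyl 4-hydroxylase, P4HA1 and P4HA2, were at 5.25 and 5.78 FPKM and at 10.3 and 11.8 FPKM. P4HA2 made up 66.3% of their sum in the control and 67.1% in shETS1, so the proportion of the subunits was nearly equal in the groups. NDRG1, a stress-responsive gene, was the 1 target of the 8 with a lower value in shETS1, at 27.9 and 22.2 FPKM and a log2 ratio of -0.33.

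The membrane carbonic anhydrases, which acidify the surroundings of hypoxic tumour cells, were scarce. CA9, often used as a tissue marker of hypoxia, was at 0.0203 and 0.0593 FPKM and was not tested. CA12 was at 0.838 and 0.869 FPKM. ANKRD37 was at 0.957 and 1.03 FPKM, and its locus overlaps the expressed gene UFSP2, so its reads are uncertain. The low levels of CA9 and EGLN3 stood beside moderate levels of BNIP3, NDRG1 and ADM in the same cells.

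**Figure D2:**
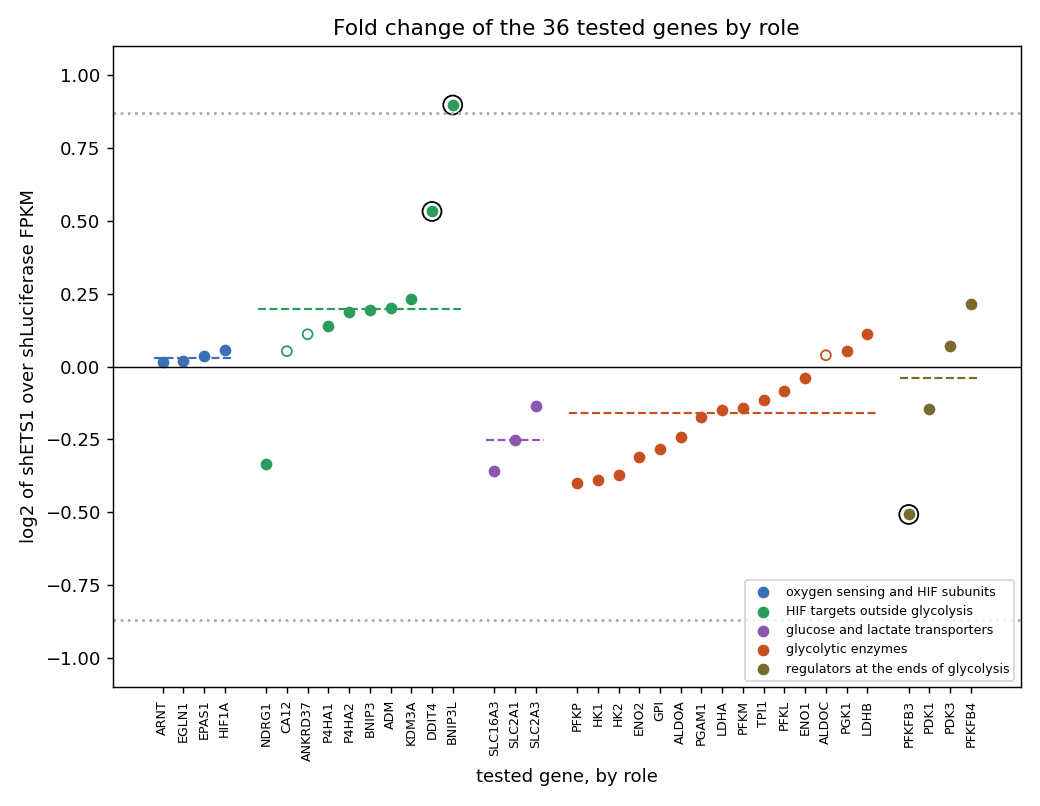
Log2 ratio of shETS1 over shLuciferase FPKM (vertical axis) of the 36 tested genes, ordered within each role group. Open points have a mean under 1 FPKM, dashed lines are the group medians over genes with at least 1 FPKM (0.20 for HIF targets outside glycolysis, -0.16 for glycolytic enzymes), black rings mark an unadjusted p under 0.05 (BNIP3L, DDIT4 and PFKFB3), and dotted grey lines mark 1.83-fold, the smallest change called in the table.

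All 3 transporters had lower values in shETS1, with none called and a median log2 ratio of -0.25. SLC2A1, the GLUT1 glucose transporter, was at 61.0 FPKM in control cells and 51.3 FPKM in shETS1. SLC2A3, the GLUT3 transporter, was at 5.25 and 4.78 FPKM. SLC16A3, the MCT4 exporter of lactate, was at 196 and 153 FPKM, a log2 ratio of -0.36 (q = 0.977, the authors' deposited table). Of the summed level of SLC2A1 and SLC2A3 alone, SLC2A1 held 92.1% in the control and 91.5% in shETS1. Other glucose transporters outside the 38 were above SLC2A3, with SLC2A6 at 15.7 and 16.3 FPKM and SLC2A8 at 7.82 and 6.35 FPKM.

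The glycolytic enzymes leaned to lower values in shETS1 by small amounts, and none of the 15 tested was called or had an unadjusted p under 0.05. Of the 14 with at least 1 FPKM, 12 had a lower value in shETS1 and 2 a higher one, where 47.4% of all tested rows at that level had a lower one. Their log2 ratios had a median of -0.16 and a range from -0.40 to 0.11. Summed over the 15 enzymes, the level was 7388 FPKM in control cells and 6777 FPKM in shETS1, 8.27% lower. ALDOA, whose reads are uncertain as described below, entered that sum at 1603 and 1357 FPKM. That sum was 1.00% of the FPKM of all rows without VIM in the control and 0.931% in shETS1. VIM was left out of this total because the table marks it, like GAPDH, as having too much data.

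The 3 lowest ratios among the enzymes were those of PFKP, HK1 and HK2, at the early and regulated steps. HK1, the hexokinase of most tissues, was at 114 FPKM in control cells and 86.6 FPKM in shETS1, and HK2, the hexokinase that many tumours induce, was at 7.11 and 5.49 FPKM. Their log2 ratios were nearly equal at -0.39 and -0.37, so that HK1 held 94.1% of the sum of the pair in the control and 94.0% in shETS1. PFKP, the platelet form of phosphofructokinase, was at 200 and 152 FPKM, a log2 ratio of -0.40, while the liver form PFKL was at 69.6 and 65.6 FPKM and the muscle form PFKM at 32.6 and 29.6 FPKM. PFKP thus made up 66.2% of the phosphofructokinase sum in the control and 61.4% in shETS1. The authors' deposited table lists q = 0.940 for HK1 and q = 0.938 for HK2 and for PFKP. Among tested rows within 2-fold of the level of HK1, those with a p between 0.03 and 0.07 had a median change of 1.39-fold, and HK1 differed by 1.31-fold. GPI, which isomerises the hexose phosphate between these steps, was at 163 and 134 FPKM.

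The most abundant enzymes of the set were at middle and lower steps, though not every enzyme there was abundant. ENO1, the main enolase, was at 2117 FPKM in control cells and 2058 FPKM in shETS1, and by mean level it was number 69 of all rows. TPI1, which interconverts the triose phosphates, was at 1671 and 1544 FPKM. ALDOA, the main aldolase, was at 1603 and 1357 FPKM, but its listed locus spans 662 kb and overlaps 21 other expressed rows, so its reads are uncertain. These 3 enzymes were the members among the 100 most abundant rows. For each of the 3, no row within 2-fold of its level was called in either direction, so the table does not show what change would be called at such levels.

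PGK1, which makes the first ATP of the pathway, was at 190 and 197 FPKM, and PGAM1, the next enzyme, at 403 and 358 FPKM. PGK1 and LDHB were the 2 enzymes with at least 1 FPKM that had a higher value in shETS1. LDHA, the lactate dehydrogenase subunit that favours lactate formation, was at 444 and 400 FPKM, and LDHB, the heart-type subunit, at 324 and 350 FPKM. The ratio of LDHA to LDHB was 1.37 in the control and 1.14 in shETS1, with a log2 ratio of -0.15 for LDHA and 0.11 for LDHB. Neither subunit was called, both having q = 1.00 in the authors' deposited table, and the difference between them was not tested. Among tested rows within 2-fold of the level of LDHA, 0 of 326 were called, and for LDHB 1 of 433. These rows show little of what change would be called at such levels.

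The minor isoenzymes ranged from nearly absent to moderate. ALDOC, the brain aldolase, was at 0.758 and 0.779 FPKM, 0.0473% of the sum of ALDOA and ALDOC in the control. ENO2, the neuronal enolase, was at 48.5 and 39.1 FPKM, with a log2 ratio of -0.31 beside -0.04 for ENO1. Of the sum of ENO1 and ENO2, ENO1 held 97.8% in the control and 98.1% in shETS1.

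Summed by step over these genes, the levels were uneven along the pathway in both groups. The 11 steps from glucose uptake to lactate export that these genes cover spanned 32.7-fold in the control, from 66.2 FPKM for SLC2A1 and SLC2A3 to 2166 FPKM for ENO1 and ENO2, and 37.4-fold in shETS1. In 10 of the 11 the sum was lower in shETS1, by 2.27% for lactate dehydrogenase up to 23.6% for hexokinase, and phosphoglycerate kinase was the exception. The phosphofructokinase sum was 302 and 247 FPKM. The aldolase sum rests on ALDOA, whose reads are uncertain. Pyruvate kinase, listed as PKM2 and not one of the 38, was at 1960 and 1690 FPKM. RNA levels at a step do not measure the flux through it.

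**Figure D3:**
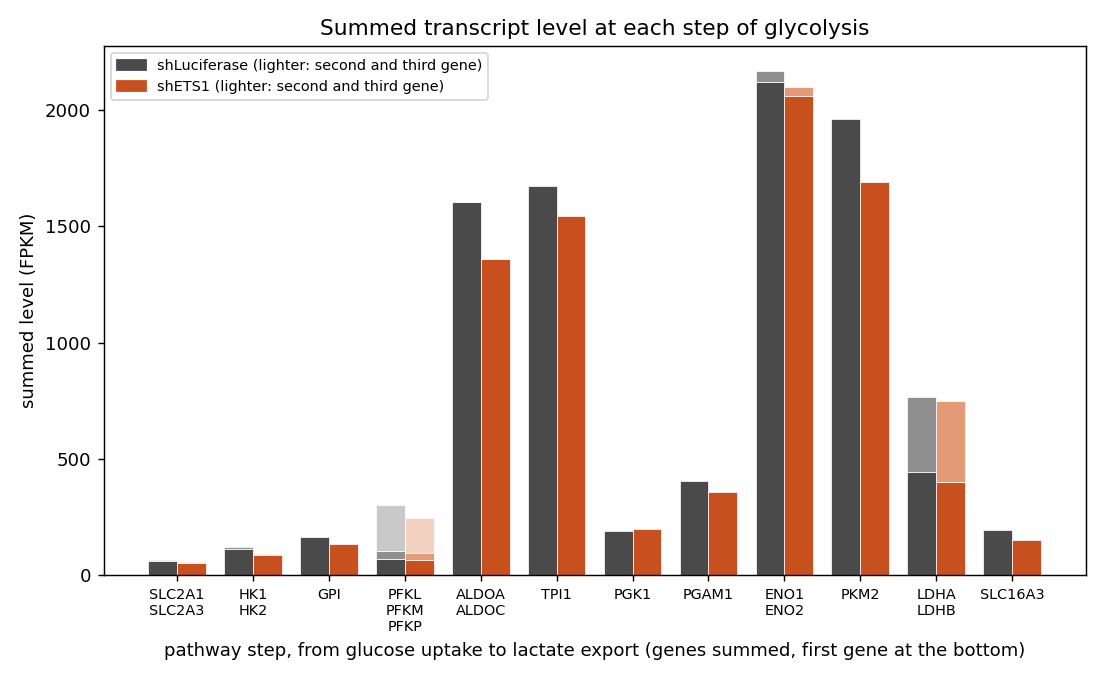
Summed FPKM of the genes of each glycolytic step (vertical axis) in shLuciferase (grey) and shETS1 (orange), in pathway order with paler segments for further isoenzymes; the GAPDH step is missing. Aldolase, triose phosphate isomerase, enolase and pyruvate kinase exceed the other steps in both groups, and phosphoglycerate kinase is the 1 step with a higher bar in shETS1 (190 and 197 FPKM). The aldolase bars rest on ALDOA, whose reads are uncertain.

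The regulators at the ends of the pathway had ratios of both signs. PFKFB3, which makes the activator of phosphofructokinase, fructose 2,6-bisphosphate, had the lowest ratio of the tested genes. PFKFB3 (chromosome 10, 6186843 to 6277507, hg19) was at 20.5 FPKM in control cells and 14.4 FPKM in shETS1, 1.42-fold lower (p = 0.0350 and q = 0.632, the authors' deposited table). PFKFB4, another form of the same enzyme, was at 1.67 and 1.94 FPKM. PFKFB3 therefore made up 92.5% of the sum of the pair in the control and 88.1% in shETS1.

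PDK1 and PDK3, kinases that shut off pyruvate dehydrogenase and so divert pyruvate to lactate, were low, while PDK2, which is not one of the 38, was at 17.9 FPKM in control cells. PDK1 was at 1.21 and 1.09 FPKM, and PDK3 was at 1.43 FPKM in control cells with a log2 ratio of 0.07 (q = 1.00 for each, the authors' deposited table). Neither approached the threshold. The wider list of glycolysis and pyruvate genes had 25 tested members, 0 of them called and 0 at an unadjusted p under 0.05, with a median log2 ratio of 0.03. Its most abundant members were PKM2 and BSG, the chaperone of lactate transporters, at 436 and 352 FPKM.

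Neighbouring pathways gave no call either. Of 28 tested further HIF targets, 0 were called and 3 had an unadjusted p under 0.05, all higher in shETS1, where 3.9% of all tested rows were. The transcriptional repressor BHLHE41 was at 0.173 and 0.472 FPKM (q = 0.0982, the authors' deposited table), and VLDLR, a lipoprotein receptor, at 1.17 and 1.88 FPKM (q = 0.496). MIF, a cytokine and the most abundant of that list, was at 1515 and 1335 FPKM. The median log2 ratio of the 26 genes of this list with at least 1 FPKM was 0.07, with 17 above 0. Of all tested rows at that level, 5612 of 10676 were above 0.

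The mitophagy list, which holds no BNIP3 or BNIP3L, had 10 tested genes, 0 of them called and 0 at an unadjusted p under 0.05. Of these 10, 8 had a higher value in shETS1, with a median log2 ratio of 0.21. Over all tested rows with at least 1 FPKM, 5612 of 10676 had a higher value. FKBP8, an outer membrane receptor and the most abundant, was at 332 and 313 FPKM, and the adaptor SQSTM1 at 193 and 223 FPKM.

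The pentose phosphate list had 8 tested genes and the glycogen and gluconeogenesis list 10, with 0 called in each. Pentose phosphate genes had a median log2 ratio of 0.09, and TKT, a transketolase, was at 495 and 476 FPKM while TALDO1, a transaldolase, was at 233 and 234 FPKM. GYS1, the glycogen synthase of muscle and other tissues, was the 1 gene of these lists at an unadjusted p under 0.05. It was at 32.0 and 21.8 FPKM (p = 0.0198 and q = 0.492, the authors' deposited table). G6PC3, a glucose 6-phosphatase, was at 107 and 118 FPKM and the glycogen phosphorylase PYGB at 46.3 and 44.3 FPKM.

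The ratios of these genes moved with the base composition of their transcripts, as they did across the table. Over the 33 genes with at least 1 FPKM, the log2 ratio and the GC content of the transcript had a Spearman rho of -0.43, and over 9681 tested rows rho was -0.47. These are correlations across genes that share the same libraries, and genes are not independent replicates. Of the 13 genes with a GC content below the tested rows' median of 49.9%, 11 had a higher value in shETS1, and of the 20 above it, 4 did. BNIP3L has a GC content of 38.9%, DDIT4 58.1% and PFKFB3 58.7%. With a cubic trend on GC content subtracted, the log2 ratio of BNIP3L was 0.69 (0.90 before), that of DDIT4 0.63 (0.53 before) and that of PFKFB3 -0.40 (-0.51 before).

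The contrast between role groups remained in sign after that subtraction for 4 of the 5 groups. The HIF targets outside glycolysis had a median of 0.17, the transporters -0.20, the glycolytic enzymes -0.13 and the regulators -0.09. The oxygen sensors and HIF subunits went from 0.03 to -0.06. Of the 33 genes, 11 then lay above 0, against 15 before. Over all tested rows with at least 1 FPKM, 4700 of the 9681 with a GC content then lay above 0. Before the subtraction 5612 of 10676 did. What part base composition plays in the values as deposited was not tested.

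**Figure D4:**
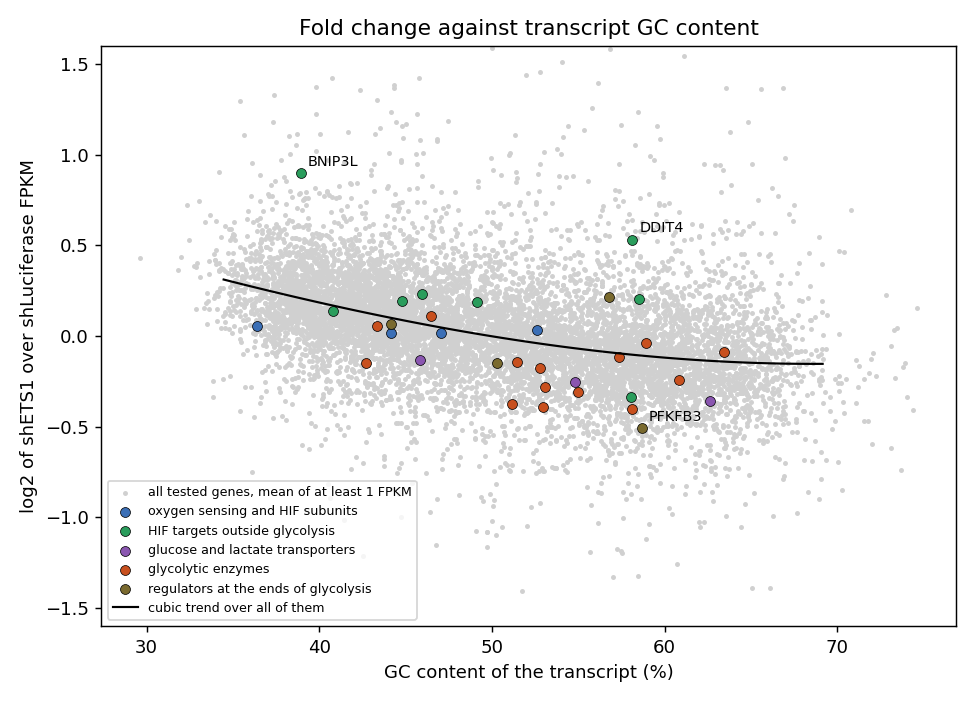
Log2 ratio of shETS1 over shLuciferase FPKM (vertical axis, limited to 1.6 in both directions) against transcript GC content (horizontal axis, percent) for tested genes with at least 1 FPKM, with the 33 hypoxia and glycolysis genes in colour by role and a cubic trend over all points. BNIP3L lies above the trend at low GC content, DDIT4 lies above and PFKFB3 below it at high GC content, and most enzymes lie below it.

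The letters of the promoter windows were set beside the ratios, a comparison chosen after the values were seen. Of the 30 genes with a window and at least 1 FPKM, 8 hold CCGGAA, and all 8 had a lower value in shETS1: ENO1, GPI, HK1, HK2, LDHA, PFKM, PFKP and SLC16A3, with a median log2 ratio of -0.32. Of the 22 without it, 8 had a lower value, and their median was 0.04. Across all tested genes with a window and at least 1 FPKM the direction was the opposite. There 44.6% were lower among 2843 genes with CCGGAA and 49.1% among 4964 without. In the rest of this comparison, all tested genes means that set. After the GC trend was subtracted, 7 of the 8 and 13 of the 22 were below 0. Across all tested genes 1396 of the 2843 and 2638 of the 4964 then were. For ACGTG, 11 of the 17 genes with it and 5 of the 13 without it had a lower value, and after the GC trend was subtracted 15 of the 17 and 5 of the 13 were below 0. Across all tested genes the shares with a lower value were 47.8% of 2616 with ACGTG and 47.3% of 5191 without. After the subtraction 1368 of those 2616 and 2666 of those 5191 were below 0. For GCGTG, 10 of the 20 with it and 6 of the 10 without it had a lower value (46.8% and 48.4% across all tested genes). After the subtraction 11 of the 20 and 9 of the 10 were below 0. Across all tested genes 2387 of 4676 with GCGTG and 1647 of 3131 without it then were. These counts carry no test, the 8 genes encode mostly enzymes of 1 pathway, and the log2 ratio of ENO1 was -0.04.

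Some of these genes have close copies elsewhere in the genome. GENCODE 29 lists 39 pseudogenes named after BNIP3, 13 after PGAM1, 6 after LDHA and 4 each after TPI1 and ENO1. The treatment of reads that match several places is not stated in the labels, so the levels of these genes are uncertain to that extent. The locus of PFKM overlaps the expressed SENP1 and that of TPI1 overlaps SPSB2.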

How the data were processed

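Polyadenylated RNA of 6 samples was sequenced. The submitters' processing notes name Cufflinks 2.1.1, TopHat2 2.0.7, SAMtools 0.1.18, Bowtie2 2.0.6 and build hg19, without their roles. Annotation, strand setting and scaling are not stated there. Per the file headers, the authors deposited Cuffdiff-style columns: 1 FPKM per gene and group, a log2 fold change, a test statistic (a score the authors deposited, not used here), and a p-value and q-value per gene, deposited by the authors. Depth is unknown, so no interval is given.

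With Python 3.11.15, pandas 2.3.3 and numpy 2.4.6, log2 ratios, medians and shares were computed from the deposited FPKM. Calls are deposited q-values up to 0.05; the q-values equal a Benjamini-Hochberg adjustment over the 11952 tested rows within 5.16e-07. Transcript GC content came from GENCODE 29 by symbol (longest coding sequence), with a value for 9681 of 10676 expressed rows. The adjustment and the GC trend were tested on simulated data. Locus starts have 1 added. No values per sample were in the table used. The genes and lists were chosen with earlier results of these data known. All 38 genes are named; of other lists, those with an unadjusted p under 0.05 and the 2 most abundant, except 1 gene that is not reported here.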

Additional observations from a re-analysis of the deposited data

How the results depend on the processing

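With a q-value threshold of 0.1, 1 of the 36 genes passed (BNIP3L), where 1.26% of all tested rows did, and 1 gene of the other lists passed (BHLHE41). With a threshold of 0.01, or with p-values adjusted again over rows with a mean of at least 1 FPKM, 0 of the 36 passed. The median log2 ratio of the 33 genes was 0.058 once the glycolytic enzymes were left out; in 9 other settings it lay between -0.14 and -0.01. Removing the GC trend changed the sign of 8 of 33 ratios (ARNT, EGLN1, ENO1, HIF1A, P4HA1, PDK3, PFKL and PGK1), and subtracting the median of all tested rows, 0.02, changed that of ARNT. Adding 0.1 or 1 FPKM to both levels changed no sign but took the log2 ratio of CA9 from 1.55 to 0.41 and 0.05. No paired analysis was possible because the table gives 1 value per group, and for the same reason no sample could be left out.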
